A study of Mus musculus with 6 samples.

Results

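The 10 genes described here encode the Myc proteins and the partners that share Max with them: Myc, Mycn, Mycl1 (now named Mycl), Max, Mga, Mnt, Mxd1, Mxd3, Mxd4 and Mxi1. They were chosen by gene symbol, in the older or newer spelling, from the study's comparison table. It held 11 probes for 9 of them. Mxi1 was reached by its transcript accession on the array alone. After a filter on dim probes and with the brightest probe of each gene, 21081 rows were tested over the whole array, and 9 of these were network genes. All 11 probes were well above background on all 6 arrays, so the filter removed none of them.

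The samples were single mouse embryos at E11.5, an early stage of neuron production in the cortex, 3 labelled mutant and 3 labelled control, from which the dorsal forebrain (in the design text, the dorso-medial pallium) was dissected. The labels give neither the mutated gene nor a Cre driver or strain, and the controls' alleles are likewise not stated. By its title, the series concerns Wnt/b-catenin signalling in precursors of the mouse cortex. Each of 3 litters gave 1 mutant and 1 control, numbered alike here. Total RNA was hybridised to 1-colour Agilent arrays. Mutant 1 and control 1 lay on slide 1, and the other 4 embryos lay on slide 2.

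Between 65.8% and 67.9% of spots were well above background on the mutant arrays, against 68.7% to 70.1% on the control arrays, and 0 spots were saturated. The 75th percentile of the signal, by which each array was scaled, was 1207 to 1380 in mutants and 1446 to 1833 in controls. Precision is limited throughout by having 3 arrays a group. Markers of cortical apical progenitors were well above background for 10 of 10 listed genes, whose differences had both signs and are described with the other cell type markers. Levels here are log2 of the signal over the array's 75th percentile, so 0 is a probe as bright as that percentile. They are compared between embryos and not between genes, because probes differ in brightness for the same amount of RNA.

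Myc proteins are basic helix-loop-helix leucine zipper factors that bind DNA as pairs with Max, at sequences called E-boxes, and drive genes of ribosome production, nucleotide synthesis and cell growth. Mxd proteins, Mxi1 and Mnt also pair with Max but bring corepressors to E-boxes, while Mga joins Max to a Polycomb complex. Mycn is known as the family member that neural progenitors of the embryonic mouse brain need in order to expand.

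Mycn was the only 1 of the 9 measured network genes whose group means lay more than 1 log2 unit apart. Its level was 2.28, 1.95 and 1.95 in mutants 1 to 3, against 3.15, 3.28 and 3.37 in controls 1 to 3. On the linear scale this was 4.84, 3.87 and 3.85 times the array's 75th percentile in mutants and 8.9, 9.71 and 10.3 times in controls. The brightest mutant embryo lay 0.88 below its litter mate, the control embryo with the lowest level, and the groups did not overlap. The probe, for the only Mycn row of the table, lies on chromosome 12 from 12943193 to 12943252 (mm9, minus strand).

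The difference in Mycn level, mutant minus control, was -1.21 on the log2 scale (SE 0.12, 95% interval -1.51 to -0.91), 2.31-fold lower in mutants. It had rank 24 of 21081 by p, and its adjusted p of 0.0596 (limma, Benjamini-Hochberg over all rows) did not pass the threshold of 0.05. In these bulk samples, fewer cells expressing a gene and less of its RNA per cell cannot be told apart. Over all rows, 7 (0.0332%) passed that threshold, and 0 of the 9 network genes were among them. With litter as a block, 0 rows over the whole array passed (4184 had an unadjusted p under 0.05), and the adjusted p of Mycn was 0.156 in limma.

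The difference in Mycn level had the same sign in every litter, at -0.88 in litter 1, -1.33 in litter 2 and -1.42 in litter 3. Within slide 1 it was -0.88, from 1 embryo of each group, and within slide 2 it was -1.38. Under 19 alternative settings the difference ran from -1.38 to -1.16, and the adjusted p from 0.014 to 0.313. Mycn passed the threshold under 5 of them, each with its own share of called rows over the array: normexp background correction (adjusted p = 0.0168, 0.745% of rows), centring on the median (0.046, 0.114%), the filter on all 6 arrays (0.042, 0.135%), a variance trend with robust variance (0.014, 0.678%) and the log2 values of the authors' table (0.0338, 0.103%), all tested with limma. The call thus depended on the setting, while the difference kept its sign and stayed within that range. Filter, probe choice, blocks and variance model left it at -1.21, as they must for a gene with 1 probe in a balanced design. Since the groups did not overlap, leaving out embryos could not turn its sign. Only the background, the scaling and the authors' values could have done so.

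The authors' deposited table gives Mycn a ratio of 0.4265 and an fdr of 0.01257, rank 20 by p among its 27295 probes. The authors' deposited table has 357 probes with an fdr under 0.05, 109 of them higher and 248 lower in mutants. They are 1.31% of all its probes and a larger share of those with an fdr, since 15795 probes have none. These values come from the same arrays as the tests above. Mycn is the only network gene under an fdr of 0.05 in the authors' deposited table. There Mycl1 has an fdr of 0.1133, Myc 0.6638, the Mxd4 probes 0.07585 and 0.08392 and the Mxd1 probes 0.07418 and 0.2072, while the fdr of Max, Mga, Mnt and Mxd3 is given as NA, as it is for 15795 probes in all.

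**Figure D1:**
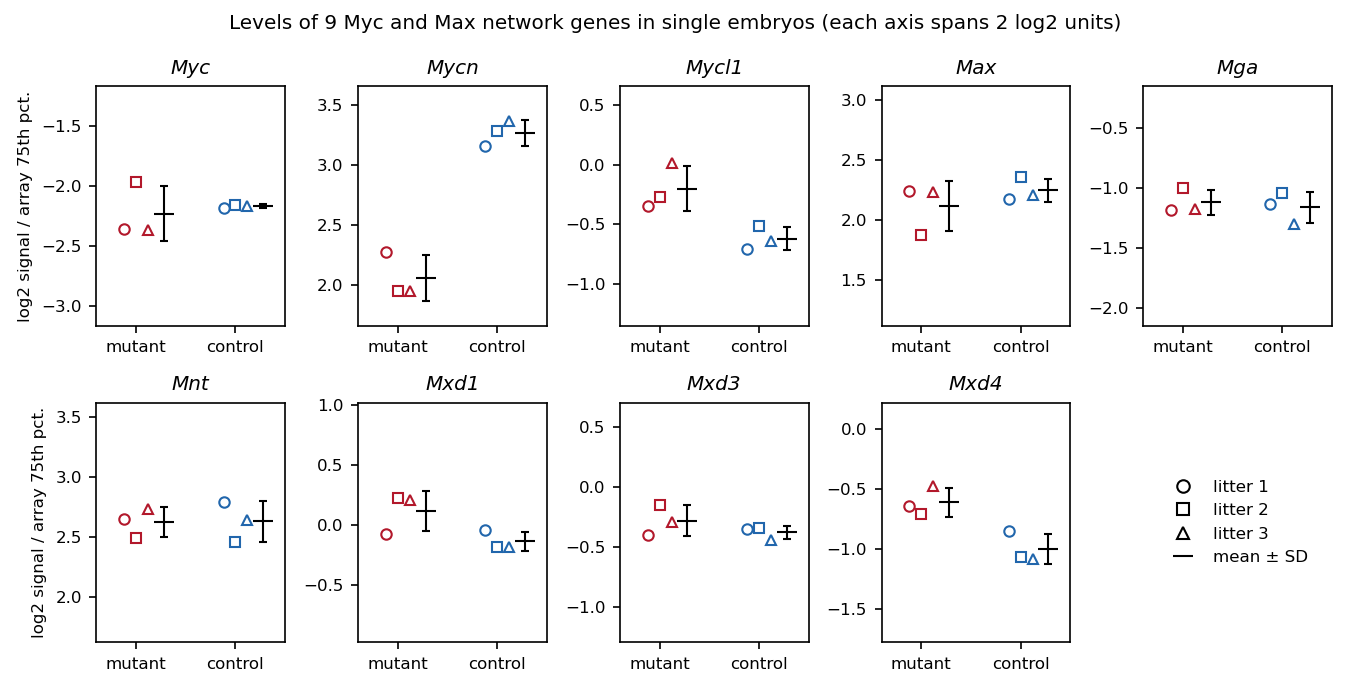
Level of 9 network genes in each embryo, as log2 of signal over the array's 75th percentile on the vertical axis, with mutants in red left of controls in blue, symbols for the litters, and the mean with SD (n = 3) beside them. Every axis spans 2 log2 units; the groups do not overlap for Mycn, Mycl1 and Mxd4.

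The other Myc genes did not share this difference. Myc, the founding member of the family, had levels of -2.36, -1.96 and -2.37 in mutants and -2.18, -2.16 and -2.17 in controls. The mutants lay on both sides of the 3 controls, which were close together (SD 0.01), and the difference was -0.06 (SE 0.13, 95% interval -0.37 to 0.25, limma adjusted p = 0.835). The Myc probe lies on chromosome 15 from 61821417 to 61821476 (mm9, plus strand).

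Mycl1, the third family gene, pointed the other way. It was at -0.35, -0.27 and 0.01 in mutants, against -0.70, -0.52 and -0.64 in controls, with no overlap. The difference of 0.42 (SE 0.12, 95% interval 0.13 to 0.71) was 1.34-fold on the linear scale and positive in 3 of 3 litters, at 0.36, 0.25 and 0.65. It did not pass over all rows (limma, adjusted p = 0.206). The Mycl1 probe lies on chromosome 4 from 122679535 to 122679594 (mm9, plus strand).

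Max, the partner of all Myc and Mxd proteins, was measured at 2.24, 1.88 and 2.23 in mutants and 2.17, 2.35 and 2.21 in controls. Mutant 2 was the lowest embryo and the other mutants lay among the controls, so the groups overlapped. The difference was -0.13 (SE 0.13, 95% interval -0.44 to 0.18, limma adjusted p = 0.635). Its interval takes in no decrease as large as that of Mycn. The Max probe lies on chromosome 12 from 78038272 to 78038331 (mm9, minus strand).

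Mnt, the broadly expressed Max partner that represses, was at 2.65, 2.49 and 2.73 in mutants and 2.79, 2.45 and 2.64 in controls (difference -0.01, 95% interval -0.29 to 0.28, limma adjusted p = 0.987). Mga, the large protein that joins Max to the Polycomb complex PRC1.6, was at -1.18, -0.998 and -1.17 in mutants and -1.13, -1.04 and -1.30 in controls (difference 0.04, 95% interval -0.20 to 0.28, adjusted p = 0.865). The embryos of both groups were interleaved for both genes. The Mnt probe lies on chromosome 11 from 74658915 to 74658974 and the Mga probe on chromosome 2 from 119792479 to 119792538 (mm9, plus strand).

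Mxd proteins other than Mxd3 are known from several tissues to come up as cells leave the cycle and differentiate. The Mxd genes measured all had positive differences, without passing the threshold (Mxd3 alone turned, to -0.0016, with median centring). In litter 1 those of Mxd1 (-0.03) and Mxd3 (-0.05) were negative. Over all rows 45.0% of differences were negative. Mxd4 had levels of -0.64, -0.72 and -0.48 in mutants, against -0.85, -1.07 and -1.08 in controls. The groups did not overlap, and the difference was 0.39 (SE 0.10, 95% interval 0.14 to 0.64), positive in 3 of 3 litters (limma, adjusted p = 0.191). A dimmer Mxd4 probe, which shares 13 bases with the first, read -3.13, -2.98 and -2.90 in mutants and -3.52, -3.34 and -3.71 in controls. It also separated the groups, with a difference of 0.52 (adjusted p = 0.173 where all probes were fitted). The brighter probe lies on chromosome 5 from 34519323 to 34519382 (mm9, minus strand).

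Mxd1 was at -0.08, 0.22 and 0.20 in mutants and -0.05, -0.19 and -0.18 in controls. Mutant 1 lay beside its litter mate while mutants 2 and 3 lay above all controls, and the difference was 0.25 (95% interval -0.01 to 0.52, limma adjusted p = 0.309). The litters differed by -0.03, 0.41 and 0.39, and the 2 positive values were those of slide 2. A second Mxd1 probe, 1803 bases away on chromosome 6, read -1.36, -1.36 and -1.28 in mutants and -1.60, -1.59 and -1.82 in controls, without overlap (difference 0.34, adjusted p = 0.195 where all probes were fitted). The brighter Mxd1 probe lies on chromosome 6 from 86597190 to 86597249 (mm9, minus strand). The 2 Mxd1 probes had differences of the same sign and placed mutant 1 differently.

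Mxd3, which in mouse neural tissue is known from proliferating progenitors, was at -0.40, -0.15 and -0.29 in mutants and -0.35, -0.34 and -0.44 in controls (difference 0.10, 95% interval -0.12 to 0.32, limma adjusted p = 0.609). The groups overlapped, and the probe lies on chromosome 13 from 55427000 to 55427059 (mm9, minus strand). The Mxi1 probe was well above background on 0 of 6 arrays, at -7.68, -7.43 and -7.52 in mutants and -7.83, -7.49 and -7.82 in controls. It was not tested, and no fold was formed from these values.

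Of the 9 network genes tested, 3 (33.3%) had an unadjusted p under 0.05 and the same 3 (33.3%) had groups that did not overlap. Over all rows 16.9% had an unadjusted p under 0.05 and 24.9% had groups that did not overlap, so the count of network genes lay near this background. By direction, 1 network gene, Mycn, was lower without overlap, against 11.9% of all rows, and 2, Mycl1 and Mxd4, were higher, against 13.0%.

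**Figure D2:**
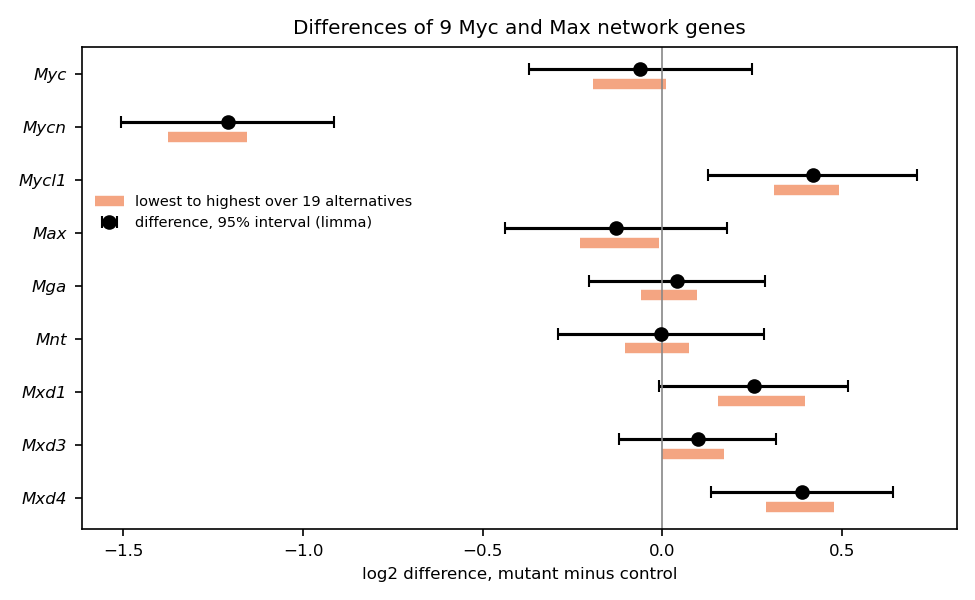
Difference in level, mutant minus control on the log2 scale, of the 9 network genes tested, with black bars for the 95% limma interval and orange bars for the lowest to highest value over 19 alternative settings. Mycn lies between -1.38 and -1.16 under every setting shown, and the orange bars of Myc, Mga, Mnt and Mxd3 include 0.

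Because the genes share an array, Mycn could be set against each other member without any scaling between arrays. The log2 ratio of Mycn to Max, relative to the control mean, was -0.99, -0.95 and -1.31 in mutants 1 to 3, against -0.04, -0.10 and 0.14 in controls 1 to 3. The ratio of Mycn to Mycl1 was -1.26, -1.67 and -1.95 in mutants and -0.03, -0.09 and 0.12 in controls. Relative to Mxd4, Mycn was at -1.35, -1.60 and -1.84 in mutants and -0.26, 0.08 and 0.18 in controls. The mutants lay below all controls for each of the 8 genes set against Mycn, and the mean difference ran from -1.08 against Max to -1.63 against Mycl1. All 8 ratios hold the same Mycn values, whose groups were already apart, so they are not separate comparisons. Such a ratio shows unequal change and not that the other gene stayed as it was.

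**Figure D3:**
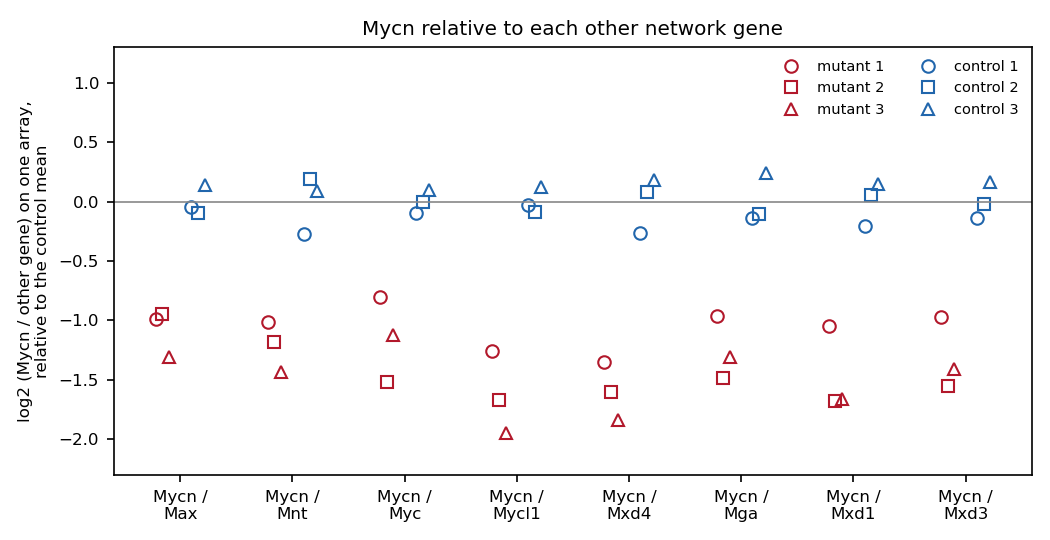
Log2 ratio of Mycn to each of 8 other network genes on the same array, relative to the mean of the controls, with mutants in red left of controls in blue. All 3 mutants lie below all 3 controls for every gene set against Mycn, from -1.08 on average for Max to -1.63 for Mycl1. The 8 ratios share the same Mycn values.

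The windows around the starts of Mycn, Max and Mxd4 are printed because they hold matches to the binding motifs this network and its inputs are known for. They are RefSeq windows of GRCm38.p6, 250 bases before to 50 after a gene's start, given 5′ to 3′ along the gene. Capitals mark every match on either strand to the E-box CACGTG, to the Tcf/Lef motif CTTTGNN, where each N is here A or T, and to the E2F motif (TTTCCCGC, TTTCGCGC, TTTGCCGC or TTTGGCGC).
Mycn, chr12:12941787-12942086, minus strand: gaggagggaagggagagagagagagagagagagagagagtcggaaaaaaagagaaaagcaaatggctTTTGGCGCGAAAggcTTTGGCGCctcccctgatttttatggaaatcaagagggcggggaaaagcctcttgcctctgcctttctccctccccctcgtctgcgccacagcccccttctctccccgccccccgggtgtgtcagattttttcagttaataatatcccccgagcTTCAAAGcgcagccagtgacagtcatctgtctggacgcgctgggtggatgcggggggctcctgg
Max, chr12:76962199-76962498, minus strand: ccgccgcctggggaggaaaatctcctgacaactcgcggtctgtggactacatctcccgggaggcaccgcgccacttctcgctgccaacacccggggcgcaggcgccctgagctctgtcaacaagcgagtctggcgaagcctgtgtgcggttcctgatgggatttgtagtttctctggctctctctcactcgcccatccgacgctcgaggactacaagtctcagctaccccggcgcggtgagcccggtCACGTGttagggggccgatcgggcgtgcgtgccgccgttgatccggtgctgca
Mxd4, chr5:34187661-34187960, minus strand: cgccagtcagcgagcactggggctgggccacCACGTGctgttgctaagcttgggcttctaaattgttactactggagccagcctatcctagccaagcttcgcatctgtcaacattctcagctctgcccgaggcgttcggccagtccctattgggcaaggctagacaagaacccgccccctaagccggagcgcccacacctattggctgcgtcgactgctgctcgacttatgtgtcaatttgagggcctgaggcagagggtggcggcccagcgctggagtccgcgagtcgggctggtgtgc

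The Mycn window holds TTCAAAG from -14 to -8, which is the Tcf/Lef motif on the other strand, counted with the bases before the start as negative. It also holds TTTGGCGC from -183 to -176 and again from -168 to -161, with GCGCGAAA overlapping the first of these from -179 to -172, and no E-box. Max has CACGTG from -3 to 3, across its start, and Mxd4 has it from -219 to -214. Of the other members, Mnt alone had a match, CACGTG from -123 to -118. Windows were at hand for 9 of the 10 members, 11 windows in all, and Myc was not among them.

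Among all 32851 windows of that length, 7.15% hold the E-box, 16.9% the Tcf/Lef motif and 2.27% the E2F motif. Of the members, 3 of the 9 with a window hold the E-box, and Mycn alone holds the other motifs. A match describes these letters and is not evidence of binding, and a window without one says only that the letters are not there.

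The genes that Myc proteins are best known to drive, a textbook list of 62 of which all 62 were tested and well above background on all arrays, lay lower in mutants nearly throughout. The difference was negative for 60 of the 62 and positive for Cdk4 (0.11) and Ldha (0.002). The median difference was -0.32 for the list, against 0.02 over all rows, of which 45.0% were negative. Relative to the control mean of each gene, the list's median was -0.30, -0.36 and -0.33 in mutants 1 to 3 and -0.06, -0.01 and 0.06 in controls 1 to 3.

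Over all rows 0 of the 62 passed the adjusted threshold in limma, while 50 (80.6%) were lower with an unadjusted p below 0.05. The same held for 7.44% of all rows. For 52 (83.9%) the mutants lay below every control, against 11.9% of all rows, and 1, Cdk4, lay above every control. With normexp background correction 5 of the 62 passed the adjusted threshold and fell (Dkc1, Gnl3, Polr1b, Slc19a1 and Wdr12), where 0.745% of all rows passed. With a variance trend and robust variance 6 did, Bop1 besides these, where 0.678% of all rows passed, and 0 of the 62 did once litter was a block in that fit. The list holds genes that work together in ribosome production, so its members are not independent of each other. The list was also chosen with earlier results of these data known.

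Gnl3, a nucleolar GTP-binding protein of stem cells and early progenitors, was at 0.40, 0.36 and 0.28 in mutants, against 0.97, 1.03 and 1.12 in controls. The difference was -0.69 (SE 0.08, limma adjusted p = 0.075), with a gap between the groups wider than the spread within either. Polr1b, the second largest subunit of RNA polymerase I, was at 0.20, 0.16 and 0.15 in mutants and 0.71, 0.77 and 0.82 in controls (difference -0.60, SE 0.07, adjusted p = 0.075). Dkc1, the pseudouridine synthase of box H/ACA particles, was at -0.19, -0.12 and -0.10 in mutants and 0.34, 0.39 and 0.47 in controls (difference -0.54, SE 0.07, adjusted p = 0.0989).

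Further genes were chosen after their values were seen, to show the range. Ncl, which encodes the abundant nucleolar protein nucleolin, had a difference of -0.50, and Cad, the enzyme that starts pyrimidine synthesis, one of -0.48. Npm1, a nucleolar chaperone, was at -0.22 and Odc1, the first enzyme of polyamine synthesis and a classical Myc target, at -0.25 with overlapping groups. Ccnd2 (-0.09), a D-type cyclin, and Tert (-0.01), the catalytic subunit of telomerase, had embryos of both groups interleaved. The lowest values of the list were those of Ung (-0.73), a DNA repair glycosylase, and Gnl3, and the highest were those of Cdk4, a cyclin-dependent kinase, and Ldha, a glycolytic enzyme.

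**Figure D4:**
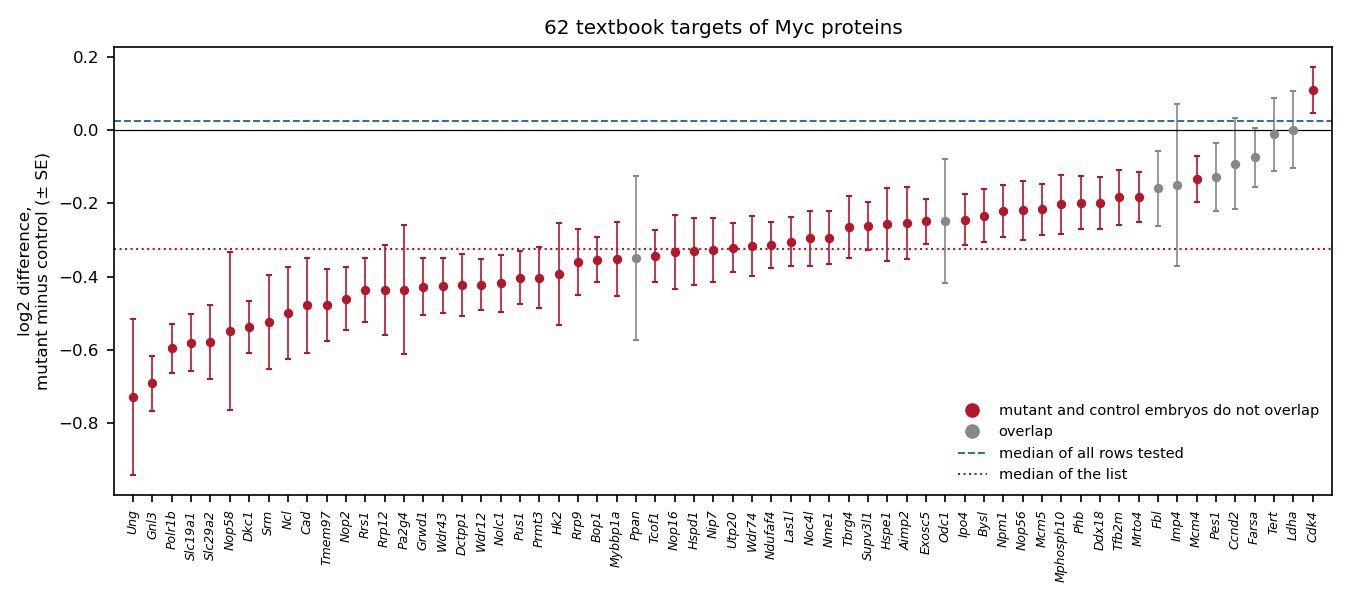
Difference in level, mutant minus control on the log2 scale with its SE, of each of 62 textbook Myc targets in rising order, with red points where the embryos of the groups do not overlap. The dotted line is the list's median of -0.32 and the dashed line the median of 0.02 over all 21081 rows.

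The target list was lower in each litter, with 58, 57 and 61 of the 62 negative and medians of -0.25, -0.32 and -0.37 in litters 1, 2 and 3. Over the alternatives the number of negative genes ran from 59 to 62 and the median from -0.42 to -0.29. Centring on the array median moved the median of all rows from 0.02 to -0.08, and the list's median there was -0.42. RefSeq windows were found for 53 of the target genes, 60 windows in all. Of these windows 18 (30.0%) hold CACGTG, against 7.15% of all windows. The E2F motif is in 4 (6.67%), against 2.27%, and the Tcf/Lef motif in 7 (11.7%), against 16.9%. These are counts of letters with no test.

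Genes known to be repressed by Myc had differences of both signs. Of 9 listed, 8 were tested (Cdkn2b was not above background on enough arrays), 5 were positive, and the median difference was 0.19. At unadjusted p below 0.05, 2 of the 8 were higher, beside 9.49% of the whole array, and 0 passed the adjusted threshold in limma. Ndrg1, a stress and differentiation gene, was at -2.83, -2.94 and -3.17 in mutants and -3.20, -3.39 and -3.53 in controls (difference 0.40, adjusted p = 0.234). The cell cycle inhibitor Cdkn1c was at 4.19, 3.94 and 3.69 in mutants and 3.58, 3.56 and 2.99 in controls (difference 0.57, adjusted p = 0.266). Cdkn1a, the inhibitor p21, had overlapping groups (difference 0.47, adjusted p = 0.309).

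The proteins that Myc binds as coactivators had a median difference of -0.03 over 14 genes. At an unadjusted p under 0.05, 4 of the 14 were lower (7.44% over the whole array) and 0 higher, and 0 passed the adjusted threshold in limma. The acetyltransferase gene Kat2a was at 1.73, 1.75 and 1.75 in mutants and 1.98, 2.13 and 2.14 in controls (difference -0.34, adjusted p = 0.158). Wdr5, a subunit of histone methyltransferase complexes, had a difference of -0.19 and Actl6a, an actin-related chromatin subunit, one of -0.18, both without overlap.

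Among 11 subunits of the corepressors that Mxd and Mnt use, 1, Suds3 of the Sin3 complex, was lower at an unadjusted p under 0.05, as were 7.44% over the whole array (difference -0.42, limma adjusted p = 0.28), and the median was -0.11. The next by p was Sap18, of the same complex (-0.18). Of 12 partners of Mga and Max in PRC1.6, 3 were lower at that level, beside the same 7.44%, and 0 passed after adjustment. They were Pcgf6, the subunit that defines this complex (0.15, 0.18 and 0.16 in mutants, 0.49, 0.44 and 0.43 in controls, difference -0.29, adjusted p = 0.152), Wdr5 (-0.19), which the coactivator list holds as well, and the E2F partner Tfdp1 (-0.23). The SD of Pcgf6 was 0.018 in mutants and 0.028 in controls.

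Of 16 genes that control the stability of Myc proteins, 0 had an unadjusted p under 0.05 in limma, beside 16.9% of the whole array. After adjustment 0 passed, and the median was -0.05. The kinase gene Gsk3b, whose protein marks Myc and Mycn for removal, had a difference of 0.31 (adjusted p = 0.334) with overlapping groups. Fbxw7, the ubiquitin ligase that reads this mark, was at 1.33, 1.58 and 1.34 in mutants and 1.19, 1.25 and 1.22 in controls (difference 0.19, adjusted p = 0.353). The parallel branch of Mlx (0.01), Mlxip (-0.20) and Mlxipl (0.04) had 0 of 3 genes at an unadjusted p under 0.05, beside the same 16.9%, and 0 after adjustment.

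MYC is known from human colorectal cancer cells as a target of beta-catenin and its Tcf/Lef partners. Components and readouts of that pathway were therefore set beside the network. Of 10 such genes, 5 were lower at an unadjusted p under 0.05 (7.44% over the whole array) and 0 higher (9.49%). The gene of beta-catenin itself is among these 5. The median of the list was -0.17, and 0 passed the adjusted threshold in limma. Of the rest, Tcf7l2 (0.19) was higher without overlap, and Tcf7l1 (0.09), Nkd1 (-0.06), Notum (-0.005) and Ccnd1 (-0.04) had overlapping groups. Lef1, the DNA-binding partner of beta-catenin, was at 2.10, 1.82 and 1.72 in mutants and 2.79, 2.94 and 3.11 in controls (difference -1.07, adjusted p = 0.0892). Tcf7, a second such partner, was at -3.24, -3.39 and -3.93 in mutants and -2.98, -2.51 and -2.72 in controls (difference -0.79, adjusted p = 0.199). Sp5, a transcription factor gene well above background on 2 of the 3 mutant arrays, was at -3.87, -4.42 and -7.17 in mutants and -1.15, -1.31 and -0.72 in controls (adjusted p = 0.153). With normexp Lef1 and Sp5 passed, as did 0.745% of all rows, and with trend and robust variance Lef1 did (0.678% of all rows). Once litter was a block in the latter fit, 0 of the 10 did.

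The level of Mycn over the 6 arrays followed that of 3 named genes most closely, by Pearson's r of the log2 level. These were Rbm8a (r = 0.998), a core protein of the exon junction complex, Tfap4 (0.997), a helix-loop-helix factor, and Ddx51 (0.997), an RNA helicase. Their own differences were -0.20, -0.64 and -0.43. The 6 points fall into the same 2 groups for every gene, and 351 of 17105 named genes had an r over 0.95, so the order among them is a description only.

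Marker lists of cell types were not level between the groups either. Neuronal markers had positive differences in 12 of 12 genes, with a median of 0.30 and a summed linear signal of 87.4 to 128 times the 75th percentile in mutants and 83.6 to 86.5 times in controls. At an unadjusted p below 0.05, 5 of the 12 were higher, beside 9.49% of the whole array, and 0 after adjustment (limma). Basal progenitor markers were positive in 9 of 9, with a median of 0.38 and sums of 77.0 to 101 in mutants and 65.3 to 68.0 in controls, and 5 of the 9 were higher before adjustment, beside the same 9.49%, and 0 after it. By litter, the neuronal median was -0.05, 0.51 and 0.50 and the basal progenitor median 0.10, 0.51 and 0.41 in litters 1, 2 and 3. Over the same litters, Mycn differed by -0.88, -1.33 and -1.42 and the median of the 62 targets by -0.25, -0.32 and -0.37. Whether the Mycn and target values go with the neuronal medians was not tested.

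Apical progenitor markers were positive in 6 of 10, with a median of 0.12 and sums of 203 to 232 in mutants and 206 to 213 in controls. At an unadjusted p below 0.05, 4 of the 10 were higher (9.49% of the whole array) and 2 lower (7.44%), and 0 passed after adjustment in limma. Fabp7, a fatty acid binding protein of radial glia, was at 5.13, 5.45 and 5.34 in mutants and 3.98, 4.04 and 3.72 in controls (difference 1.39, adjusted p = 0.0547). The cortical regulators Emx2 (-0.92, adjusted p = 0.0672) and Lhx2 (-0.58, adjusted p = 0.104) were lower without overlap. Fabp7, Emx2 and Lhx2 passed both with normexp (0.745% of all rows) and with trend and robust variance (0.678%). Once litter was a block in the latter fit, 0 of the 10 did. Mitotic genes, 12 in all, had 0 at an unadjusted p under 0.05 (16.9% of the whole array) and 0 after adjustment. Of them 11 were negative, and the median was -0.03. Their sums of 153 to 164 in mutants and 158 to 168 in controls overlapped.

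Markers of other cell types varied between single embryos. Markers of the meninges, the membranes around the brain, were measured for 12 of 12, with a median against the control mean of 1.07, -0.24 and -0.72 in mutants and 0.14, 0.02 and -0.21 in controls, and sums of 15.2 to 46.0 in mutants and 21.0 to 31.1 in controls. Hem and choroid plexus markers, with Wnt3a, Wnt2b and Ttr not tested, stood at 1.83, 0.97 and -0.67 in mutants and -0.20, -0.12 and 0.28 in controls, with sums of 1.46 to 14.7 in mutants and 4.84 to 5.95 in controls. Bmp6 and Rspo2, with the largest differences of this list (2.88 and 4.58), were well above background on 3 mutant arrays but only 1 control array. With the filter on all 6 arrays 8 genes remained, and the median difference was 0.39, against 0.54 before. Markers of the neighbouring subpallium were 1.41, 0.85 and 1.94 in mutants and 1.14, 0.85 and -2.06 in controls, with control 3 apart from the other 5 embryos (Nkx2-1 not tested).

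Diencephalic markers, with Barhl2 not tested, were positive in 7 of 8 (sums 3.51 to 4.96 in mutants, 1.37 to 3.80 in controls). Their median difference was 0.39, and without control 3 it was 0.14, with 6 of 8 positive. Gbx2 (-0.62) was well above background on 3 control arrays but only 1 mutant array. Markers of red blood cells were negative in 8 of 8 (458 to 740 in mutants, 656 to 750 in controls). Their median was 0.11, 0.04 and -0.98 in litters 1, 2 and 3, and without mutant 3, 5 of 8 were positive. Those of microglia were negative in 8 of 8 (2.0 to 3.38 in mutants, 2.67 to 3.14 in controls). Endothelial markers were negative in 4 of 8 (5.79 to 8.81 in mutants, 7.20 to 8.50 in controls). The part of all these lists in the values of the network genes was not tested.

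**Figure D5:**
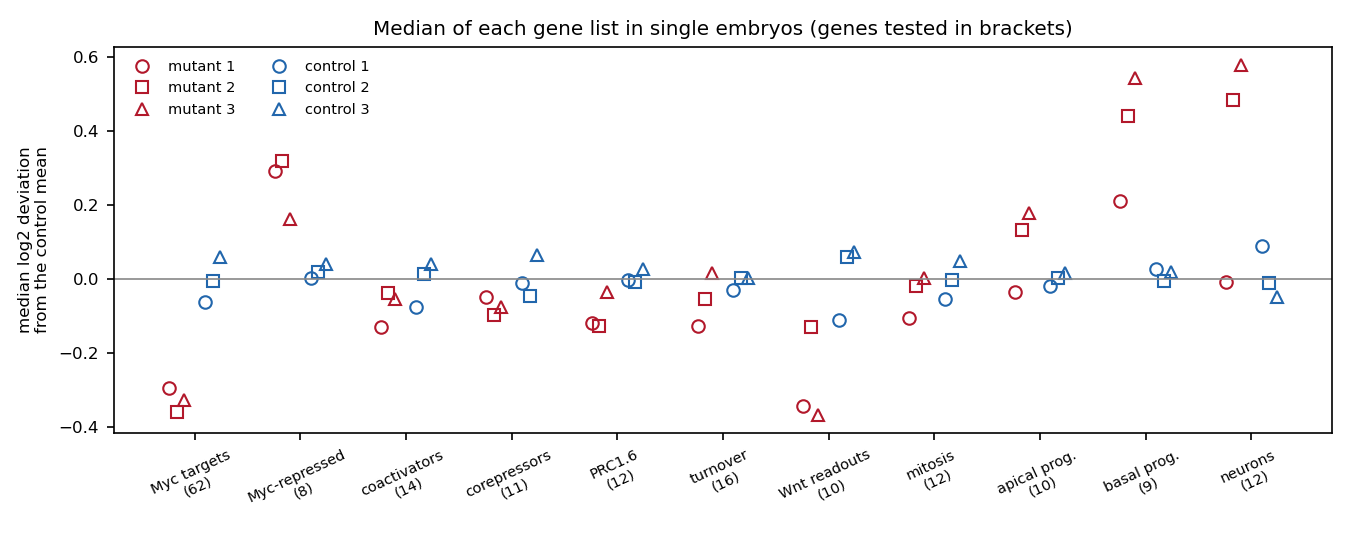
Median log2 deviation from the control mean over the genes of 11 lists in each embryo, with mutants in red left of controls in blue and the number of genes tested in brackets. The Myc targets lie between -0.36 and -0.30 in mutants and between -0.06 and 0.06 in controls, while the neuronal and basal progenitor lists are highest in mutants 2 and 3.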

How the data were processed

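Per the file headers, the scanner files give spot intensity from Agilent Feature Extraction 10.7.3.1 on a linear scale, background-subtracted within the array (grid build mm9). The authors' deposited table holds log2 values for 3 mutant and 3 control columns, a log2 ratio, a linear ratio, a p-value and an fdr for mutant against control. The submitters' processing notes name limma, without version or role. Columns of that table were used by group only, because their numbers do not follow the titles (the column of mutant 1 matches the array of mutant 2, r = 0.904).

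Outlier spots were left out, spots of a probe averaged, and log2 of the processed signal scaled by the array's 75th percentile. A probe was kept if well above background on 3 or more of the 6 arrays (26915 of 39429), and the brightest probe of a gene was used. Names came from a RefSeq table by accession (26581 probes) or the table's symbol (2040 found there, 1080 kept as given), and 9728 stayed unnamed. Groups were compared with limma 3.58.1 (lmFit, eBayes, two-sided, R 4.3.3), with Benjamini-Hochberg adjustment over all rows and a threshold of 0.05. The script was tested on simulated data. Files were read with pandas 2.3.3 and numpy 2.4.6 in Python 3.11.15, and plots drawn with matplotlib 3.10.9.

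Litters, given in the titles, pair the embryos: correlations of deviations from the group mean were 0.308, 0.357 and 0.106 for litter mates and -0.411 to 0.108 for other pairs. The alternatives concerned background, scaling, filter, probe choice, litter and slide blocks, variance model, threshold, the authors' values and each embryo left out; litter with trend and robust variance, and slide 2 alone, were added after seeing the data. The network genes and all gene lists were chosen with earlier results of these data known. Genes named are the 10 members, up to 3 of each list by smallest unadjusted p, and the 3 most correlated with Mycn; the rest are marked as chosen later, or complete a count. A few genes that this rule names are not reported here.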

Additional observations from a re-analysis of the deposited data

How the results depend on the processing

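Litter and slide blocks and the variance model leave each difference as it is. Leaving out embryos cannot turn the sign for Mycn, Mycl1 and Mxd4, whose groups did not overlap. The sign of the difference held under all 19 alternatives for Mycn, Mycl1, Mxd4, Mxd1 and Max. It turned for Mga with median centring (-0.0597) and the authors' log2 values (-0.00033), for Mxd3 with median centring (-0.0016), and for Mnt with quantile normalization (0.0083) and slide 2 alone (0.0614), none of them near the threshold; the cause was not tested. With 1 embryo left out, values ran from -0.0300 to 0.0969 for Mga, from -0.0926 to 0.0741 for Mnt and from -0.194 to 0.00924 for Myc.

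Of the network genes, 0 passed in the fit described above and 1, Mycn, with normexp, median centring, the filter on all 6 arrays, trend with robust variance, an adjusted p under 0.1 or the authors' log2 values. Without 1 embryo the adjusted p of Mycn was at least 0.065 in each case and its difference -1.32 to -1.16.

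Over all rows, 7 passed (2 higher, 5 lower), against 157 with normexp (83 higher, 74 lower), 143 with trend and robust variance (56 higher, 87 lower), 79 at an adjusted p under 0.1, 26 with the filter on all 6 arrays (10 higher, 16 lower), 24 with median centring (5 higher, 19 lower), 22 with the authors' log2 values, 15 with quantile normalization, 7 with all probes, 2 with probes of a gene averaged and 2 with the litter block plus trend and robust variance. Litter as a replicate block left 0 in limma (4184 at an unadjusted p under 0.05), slide as a block 0 (4147), slide 2 alone 0 (3841) and no filter 0 (7916); leaving out 1 embryo gave 0 to 1. Added to the fit described above, where 0 network genes had passed, the litter block could take no call away and added none. It moved the adjusted p of Mycn from 0.0596 to 0.156 in limma. Added to the fit with trend and robust variance, where Mycn passed at 0.014, it took Mycn to an adjusted p of 0.0833. Normexp moved the median of all rows to 0.07, median centring to -0.08 and no filter to 0.11, from 0.02.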
